A study of Mus musculus and Homo sapiens with 30 samples.

Results

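The 2 mouse mammary lines of the series were compared as they grew in their own media, with no fat-cell secretome added. The comparison used 6 of the 30 libraries, chosen by the line and the treatment in their labels: 3 of E0771 and 3 of NMuMG, all labelled as controls. E0771 is a transplantable line from a mouse mammary tumour, and NMuMG is an immortal epithelial line from normal mouse mammary gland, yet the labels give both the cell type breast cancer. Cells of both lines grew for 36 h below confluence and then spent 16 h in fresh standard medium. The E0771 medium was DMEM with 10% serum. The NMuMG medium, also DMEM with 10% serum, had insulin at 10 mcg/ml and is listed with glucose at 4.5 g/L, so line and medium cannot be told apart in any value below. No transgene or edited allele is given for either line. The other libraries of the series held these lines, or a human line, under the same conditions or with secretome from lean or obese fat making up 50% of the medium. The labels do not say whether the 3 libraries of a line came from separate cultures, so the p-values measure the spread between 3 libraries of 1 line, which may be technical, and they do not extend to cancer and normal cells at large.

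Epithelial cells hold to each other through E-cadherin, tight junctions and desmosomes, and they carry pairs of keratins as intermediate filaments, with Krt8 and Krt18 as the pair of simple epithelia. In an epithelial-mesenchymal transition, factors of the Snail, Zeb and Twist families bind E-box sequences such as CAGGTG and turn off junction and keratin genes, while vimentin, N-cadherin and fibrillar matrix genes are turned on. The normal mammary gland holds hormone-sensing luminal cells, luminal progenitors that make milk, and basal myoepithelial cells, each with its own markers. Position along the body axis is recorded in the Hox clusters, and germline genes are kept silent in body cells largely by DNA methylation of their promoters.

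The libraries held 22929035 to 27401791 counts in E0771 and 26107943 to 29686456 in NMuMG. Levels are given in CPM, a gene's counts relative to the scaled library total, as mean ± SD of 3 libraries unless single libraries are given, and log2 fold changes are E0771 over NMuMG, so negative values are higher in NMuMG. Of 15311 genes tested with edgeR's quasi-likelihood test, 12701 (83.0%) had an adjusted p under 0.05 at any size of change. A gene was called where the change was also at least 2-fold, which held for 5972 genes (39.0%). By that rule 2226 genes were called higher in E0771, which was 14.5% of those tested, and 3746 were called higher in NMuMG, which was 24.5%. The libraries of the lines did not overlap for 12825 genes (83.8%). For the called genes named below, the libraries of the lines did not overlap. These shares are the background against which each gene group below is read, and the median log2 fold change over all genes tested was -0.05. Scaling by library totals alone moved that median by over 0.1, to 0.05, and gave 2478 and 3547 calls. Genes with low counts in both lines were left out before testing. A gene near 0 in one line could thus be tested only if it was higher in the other, which fixed its direction in advance.

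Epithelial adhesion genes separated the lines. Of 36 junction and surface genes, 25 passed the filter on low counts, 22 were called higher in NMuMG, 1 was called higher in E0771 and 2 were not called, with a median log2 fold change of -3.82. Cdh1, which encodes E-cadherin, was at 562, 579 and 546 CPM in the NMuMG libraries and at 0.0704, 0.217 and 0.126 CPM in the E0771 libraries (log2 fold change -11.95, SE 0.0917, adjusted p = 6.28e-48). The E0771 values rest on 11 counts over all 3 libraries, and the groups were far apart. Cgn, which encodes the tight-junction protein cingulin, had 0 counts in E0771 and 97.3 ± 1.82 CPM in NMuMG, at least 2589-fold higher. Lsr, a receptor that organises corners where 3 cells meet, stood at 187 ± 8.55 CPM in NMuMG with 2 counts over the 3 E0771 libraries, a ratio of 7445 with a 95% counting interval of 2061 to 61483. The exception was Nectin1, an adhesion receptor, at 37.3 ± 0.904 CPM in E0771 against 11.7 ± 1.04 in NMuMG (log2 fold change 1.68, SE 0.0695, adjusted p = 1.44e-23).

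NMuMG did not carry the full set of epithelial markers either. Epcam, an epithelial adhesion molecule, was at 2.52, 2.31 and 2.00 CPM in NMuMG, above the 0, 0.108 and 0.126 CPM of E0771 but low. Cldn4, a claudin of tight junctions, reached 0.953 ± 0.285 CPM in NMuMG and 0 counts in E0771. Cldn7 and the splicing factor Esrp1 had 0 counts in all 6 libraries, and Grhl2, a transcription factor of epithelia, had 13 counts over the E0771 libraries and 8 over those of NMuMG. Among 28 epithelial transcription and splicing factors, 17 were tested, 12 were called higher in NMuMG and 3 higher in E0771, with a median of -5.64. Rbm47, an RNA-binding protein that guides epithelial splicing, was at 115 ± 0.837 CPM in NMuMG against 0.0716 ± 0.0723 in E0771 (log2 fold change -10.49, SE 0.132, adjusted p = 3.27e-41). Ehf, an Ets factor of epithelia, was at 35.2 ± 0.363 CPM in NMuMG and had 2 counts over the E0771 libraries. The 3 that went the other way were Tfap2a, at 47.3 ± 4.23 against 2.55 ± 0.192 CPM, Tbx3, at 67.8 ± 2.46 against 1.34 ± 0.370 CPM, and Cebpb, at 187 ± 7.05 against 81.8 ± 7.10 CPM, all transcription factors that also act in the developing mammary gland.

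Keratins and desmosome genes included the largest bound among the genes named here. Krt18 had 0 counts in all 3 E0771 libraries and 2569.9, 2707 and 2570.5 CPM in NMuMG, at least 69539-fold higher (adjusted p = 3.57e-49). Its partner Krt8 was present in both lines, at 239.8, 246 and 249 CPM in E0771 and 3573, 3680.4 and 3464 CPM in NMuMG (log2 fold change -3.87, SE 0.0383, adjusted p = 9.82e-45). E0771 thus had transcripts of the type II keratin of the pair and none detected of the type I keratin. Krt19, another type I keratin of simple epithelia, had 0 counts in E0771 and 791 ± 40.5 CPM in NMuMG, at least 21013-fold higher. Krt20 was at 211 ± 6.07 CPM in NMuMG and at 0 counts in E0771. Of 25 keratin and desmosome genes, 17 were tested, 14 were called higher in NMuMG and 2 higher in E0771, and the median was -7.63, or -6.62 with genes at 0 set at the bound that 3 counts give. The pair that went the other way was low or modest, with Krt16 at 0.925 ± 0.222 against 0.0735 ± 0.0357 CPM and the desmosome plaque gene Pkp3 at 8.46 ± 0.427 against 2.47 ± 0.393 CPM.

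Krt8 and Krt18 lie in the same keratin cluster on chromosome 15, and their starts are shown because one was detected in E0771 and the other was not. The windows run over the 250 bases before each start, from RefSeq on GRCm38.p6, 5′ to 3′ along the transcript, with Krt8 at chr15:102004343-102004592, minus strand, and Krt18 at chr15:102027966-102028215, plus strand. Capitals mark the E-box CAGGTG, read here on the other strand as CACCTG. Each window held 1, starting 111 bases before the start of Krt8 and 214 before that of Krt18.
Krt8: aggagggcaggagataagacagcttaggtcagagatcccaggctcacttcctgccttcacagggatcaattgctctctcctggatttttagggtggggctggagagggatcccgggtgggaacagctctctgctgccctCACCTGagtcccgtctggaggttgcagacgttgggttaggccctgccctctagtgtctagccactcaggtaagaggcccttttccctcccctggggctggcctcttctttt
Krt18: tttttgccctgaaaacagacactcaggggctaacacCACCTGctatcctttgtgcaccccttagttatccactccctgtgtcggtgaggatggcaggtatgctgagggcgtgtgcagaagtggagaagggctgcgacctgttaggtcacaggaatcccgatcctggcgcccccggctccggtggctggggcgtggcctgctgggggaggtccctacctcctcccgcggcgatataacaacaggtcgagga
The share of windows with this E-box on either strand, counted over 250 bases before to 50 after the start, was 17.1% of 9979 matched protein-coding genes tested and 20.0% of all 27025 gene windows. A match of letters is a description and not a site of binding.

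Mesenchymal genes leaned to E0771 in number, but not all of them went that way. Of 38 listed, 31 were tested, 15 were called higher in E0771, 7 higher in NMuMG and 9 not called, with a median log2 fold change of 0.96. The share called higher in E0771 was 48.4%, beside 14.5% of all genes tested. For NMuMG it was 22.6%, near the 24.5% of all genes tested. Vim, the intermediate filament vimentin, was high in both lines, at 2899.8, 2882 and 2992 CPM in E0771 and 1803, 1906 and 1833 CPM in NMuMG (log2 fold change 0.66, SE 0.0338, adjusted p = 1.51e-20), under the 2-fold needed for a call. Of the transcription factors, Twist1 was at 39.9 ± 2.27 CPM in E0771 against 1.19 ± 0.0685 in NMuMG (log2 fold change 5.06, SE 0.105, adjusted p = 8.62e-34). Zeb2 was also called higher in E0771, at 73.9 ± 1.46 against 17.4 ± 0.279 CPM (log2 fold change 2.09, SE 0.0551, adjusted p = 3.13e-30), while Zeb1 was at 79.1 ± 2.25 and 55.4 ± 2.20 CPM and was not called. Snai2 went the other way, at 6.65 ± 0.135 CPM in NMuMG with 7 counts over the E0771 libraries (log2 fold change -6.17, SE 0.307, adjusted p = 6.65e-21). Snai1 was called higher in E0771, at 36.5 ± 1.95 against 2.32 ± 0.167 CPM, and Twist2 was at 32.0 ± 1.75 and 28.8 ± 2.87 CPM, with overlapping libraries, and was not called. Of these 6 factors, 3 were called higher in E0771, 1 higher in NMuMG and 2 were not called.

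Matrix and adhesion genes of mesenchymal cells were called in both directions. Col1a1, a chain of fibrillar collagen, was at 616, 701 and 667 CPM in E0771 and 5.14, 5.13 and 4.62 CPM in NMuMG (log2 fold change 7.06, SE 0.0614, adjusted p = 1.47e-43). Col3a1 was at 125 ± 12.7 CPM in E0771 against 0.0495 ± 0.0212 in NMuMG (log2 fold change 11.17, SE 0.164, adjusted p = 2.08e-26), and the growth factor receptor gene Pdgfrb at 93.0 ± 5.88 against 0.122 ± 0.0373 CPM (log2 fold change 9.50, SE 0.130, adjusted p = 5.29e-40). Fibronectin and N-cadherin, usually listed among mesenchymal genes, were on the NMuMG side. Fn1, which encodes fibronectin, had 0 counts in all 3 E0771 libraries and 1551, 1612 and 1639 CPM in NMuMG, at least 42574-fold higher (adjusted p = 1.43e-48). Cdh2, which encodes N-cadherin, was at 265, 262 and 272 CPM in NMuMG and had 3 counts over all E0771 libraries, a ratio of 7090.5 with a 95% counting interval of 2426 to 34385. Lox, a collagen cross-linking enzyme, had 0 counts in E0771 and 15.8 ± 0.378 CPM in NMuMG. NMuMG therefore had transcripts of both cadherins, and E0771 had nearly none of either.

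**Figure D1:**
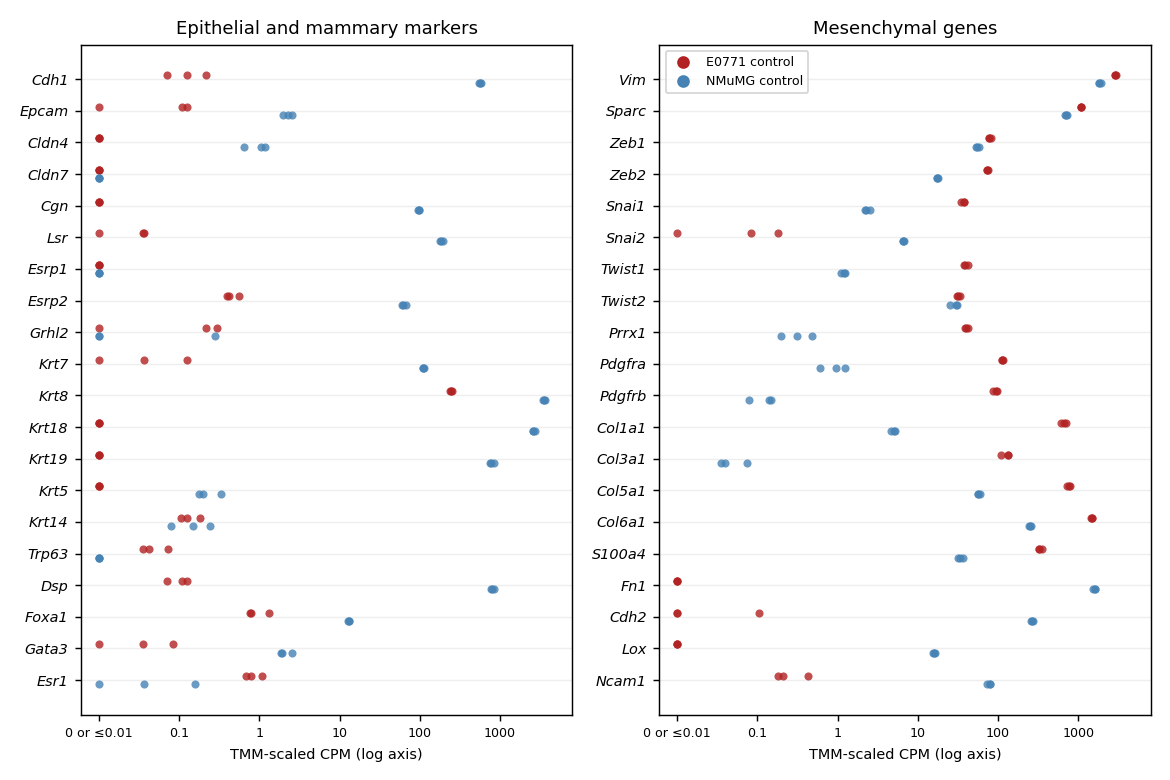
Each point is 1 control library's level in CPM (x axis, log axis) for epithelial and mammary markers (left) and mesenchymal genes (right), red for E0771 and blue for NMuMG, with values at or under 0.01 CPM drawn at 0.01. The E0771 points of Cdh1, Krt18 and Fn1 lie under 1 CPM while those of NMuMG lie above 100 CPM, Vim is high in both lines, and Twist1, Zeb2 and Col1a1 lie higher in E0771.

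The markers of the mammary cell types were mostly missing from both lines. Of 12 hormone-sensing luminal genes, 7 did not pass the filter, 8 were under 1 CPM in both lines, and 5 were called, 2 higher in E0771 and 3 in NMuMG. Esr1, the estrogen receptor, was at 0.853 ± 0.215 CPM in E0771 and 0.0653 ± 0.0832 in NMuMG (log2 fold change 3.70, SE 0.560, adjusted p = 1.65e-07), and Pgr, the progesterone receptor, had 0 counts in all 6 libraries. Foxa1, a partner of the estrogen receptor, was at 13.0 ± 0.165 CPM in NMuMG against 0.958 ± 0.301 in E0771. Gata3, a regulator of luminal fate, was at 2.10 ± 0.391 CPM in NMuMG with 3 counts over the E0771 libraries. Elf5 and Kit, markers of luminal progenitors, had at most 3 counts over the libraries of either line. The basal markers Krt5, Krt14 and Trp63 were low in both as well, with Krt5 at 0.235 ± 0.0850 CPM in NMuMG and 0 counts in E0771, Krt14 at 0.138 ± 0.0388 and 0.157 ± 0.0831 CPM, and Trp63 at 0.0499 ± 0.0197 CPM in E0771 and 0 counts in NMuMG. These markers assign neither line to 1 mammary cell type.

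Some genes of these mammary lists did differ. Among 20 luminal progenitor and milk genes, 8 were tested, with 5 called higher in NMuMG and 2 in E0771. Muc1, a mucin of the luminal surface, was at 96.8 ± 4.30 CPM in NMuMG against 0.109 ± 0.0902 in E0771 (log2 fold change -9.69, SE 0.133, adjusted p = 5.27e-40), and Cd14, a receptor for bacterial products, at 186 ± 9.36 against 0.754 ± 0.218 CPM. Xdh, an enzyme of purine breakdown that also coats milk fat droplets, was higher in E0771, at 83.2 ± 6.61 against 2.64 ± 0.360 CPM. Of 21 basal myoepithelial genes, 13 were tested, 9 were called higher in NMuMG and 1 in E0771. Lamb3, a chain of basement membrane laminin, was at 178 ± 10.3 CPM in NMuMG against 0.341 ± 0.163 in E0771. Nrg1, a ligand of the ErbB receptors, was at 79.8 ± 1.04 CPM in NMuMG and at 0 counts in E0771, at least 2126-fold higher.

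NMuMG carried transcription factors of endoderm and kidney that are not part of the mammary lists. The lists of endoderm factors, of liver, gut and biliary products and of kidney genes were drawn up after the largest changes had been seen, so that their counts follow in part from that choice, and nothing is tested with them. All 15 tested of 19 endoderm factors were called higher in NMuMG and none in E0771. Hnf4a, a master factor of hepatocyte and gut genes, was at 413, 405 and 392 CPM in NMuMG with 2 counts over the E0771 libraries. Onecut2, a factor of liver and pancreas development, had 0 counts in E0771 and 304, 286 and 321 CPM in NMuMG, at least 8089.6-fold higher. Foxa2, a pioneer factor of endoderm, was at 102 ± 4.60 CPM in NMuMG and at 0 counts in E0771, as was Gata6, a factor of early endoderm, at 84.4 ± 2.55 CPM. Summed over the list, the level was 1099 to 1123 CPM in NMuMG and 1.13 to 1.85 CPM in E0771. These factors thus passed the filter on low counts largely or only through NMuMG, and their shared direction follows in part from that filter.

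Products of such epithelia were present in NMuMG too. Of 25 liver, gut and biliary products, 18 were tested, 16 were called higher in NMuMG and none in E0771. Apob, the structural protein of very low density lipoproteins, had 0 counts in E0771 and 769, 698 and 829 CPM in NMuMG, at least 20406-fold higher (adjusted p = 2.37e-10). Anxa13, an annexin of gut and kidney epithelium, had 0 counts in E0771 and 416 ± 5.38 CPM in NMuMG, at least 11062-fold higher. Cldn2, a claudin of leaky epithelia, was at 444 ± 9.77 CPM in NMuMG, and albumin itself (Alb) at only 6.02 ± 0.381 CPM, both with at most 1 count over the E0771 libraries. Apoe and Mttp, of the same list, were not called, at 6.32 ± 1.65 and 7.40 ± 0.799 CPM in E0771 and 4.61 ± 1.14 and 6.92 ± 0.282 CPM in NMuMG. Serpina1a, an antitrypsin gene with near-identical copies, was at 61.6 ± 6.03 CPM in NMuMG, and how reads were split among the copies is not known.

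Kidney genes went both ways. Of 17 listed, 13 were tested, with 10 called higher in NMuMG and 3 in E0771. Cdh6, a cadherin of kidney tubules, had 0 counts in E0771 and 363, 351 and 381 CPM in NMuMG, at least 9716-fold higher. Pax2, a factor of kidney and Müllerian duct, was at 85.1 ± 2.30 CPM in NMuMG against 0.308 ± 0.198 in E0771, and Sall1, a factor of kidney progenitors, at 44.6 ± 1.89 CPM with 1 count over the E0771 libraries. On the E0771 side were the water channel Aqp1, at 138 ± 6.79 against 2.87 ± 0.826 CPM, the endocytic receptor Lrp2, at 69.3 ± 10.2 against 9.07 ± 0.967 CPM, and the ligand Gdnf, at 32.2 ± 0.790 against 0.476 ± 0.145 CPM. Whether the NMuMG libraries held RNA of another line was not tested. The same genes were read in the NMuMG libraries with secretome, where Hnf4a had means of 370.3 CPM with lean and 366 CPM with obese secretome.

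E0771 in turn carried germline and placental genes. This list too was drawn up after the largest changes had been seen. Of 69 genes, 49 did not pass the filter, and of the 20 tested 14 were called higher in E0771 and 3 higher in NMuMG. Pnma5, an X-linked gene of the paraneoplastic antigen family, had 0 counts in NMuMG and 299.9, 295 and 289 CPM in E0771, at least 7945-fold higher (adjusted p = 8.70e-45). Esx1, an X-linked homeobox gene of the placenta, was at 554, 553 and 563 CPM in E0771 and 0.315, 0.318 and 0.0739 CPM in NMuMG (log2 fold change 11.18, SE 0.0885, adjusted p = 1.34e-47). Rhox5, an X-linked homeobox gene of the reproductive tract, was at 248 ± 8.36 against 0.124 ± 0.0850 CPM (log2 fold change 10.92, SE 0.104, adjusted p = 3.10e-45). Tex19.1, which limits retrotransposons in germ cells and placenta, was at 162 ± 2.39 CPM in E0771 with 3 counts over the NMuMG libraries, a ratio of 4369 with a 95% counting interval of 1495 to 21188. Of the 14 genes, 8 lie on the X chromosome, beside 485 of the 15311 genes tested. As the list was drawn up after the largest changes had been seen, this count follows in part from that choice.

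Genes of meiosis and of transposon silencing were among the rest. Tex11, needed for chromosome pairing in meiosis, had 0 counts in NMuMG and 64.1 ± 0.481 CPM in E0771, at least 1725-fold higher. Tdrd1, a Tudor protein of the piRNA pathway, was at 52.0 ± 2.23 CPM in E0771, at least 1405-fold higher, and Morc1, which silences transposons in male germ cells, at 49.8 ± 1.78 CPM, at least 1338-fold higher. Dppa4, a gene of early embryos, was at 45.6 ± 1.53 CPM and Nxf3, a testis gene of the mRNA export family, at 94.3 ± 4.07 CPM, both with 0 counts in NMuMG. Xlr3c was at 51.4 ± 1.25 CPM in E0771, and as it has near-identical copies its value is uncertain. On the other side, Tdrkh, a Tudor protein of the same piRNA pathway, had 0 counts in E0771 and 26.4 ± 0.670 CPM in NMuMG, at least 702-fold higher, Tex15 was at 1.17 ± 0.210 CPM in NMuMG with 0 counts in E0771, and Hsf2bp at 1.53 ± 0.155 against 0.116 ± 0.0494 CPM. The germline genes therefore did not all lie on the E0771 side.

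**Figure D2:**
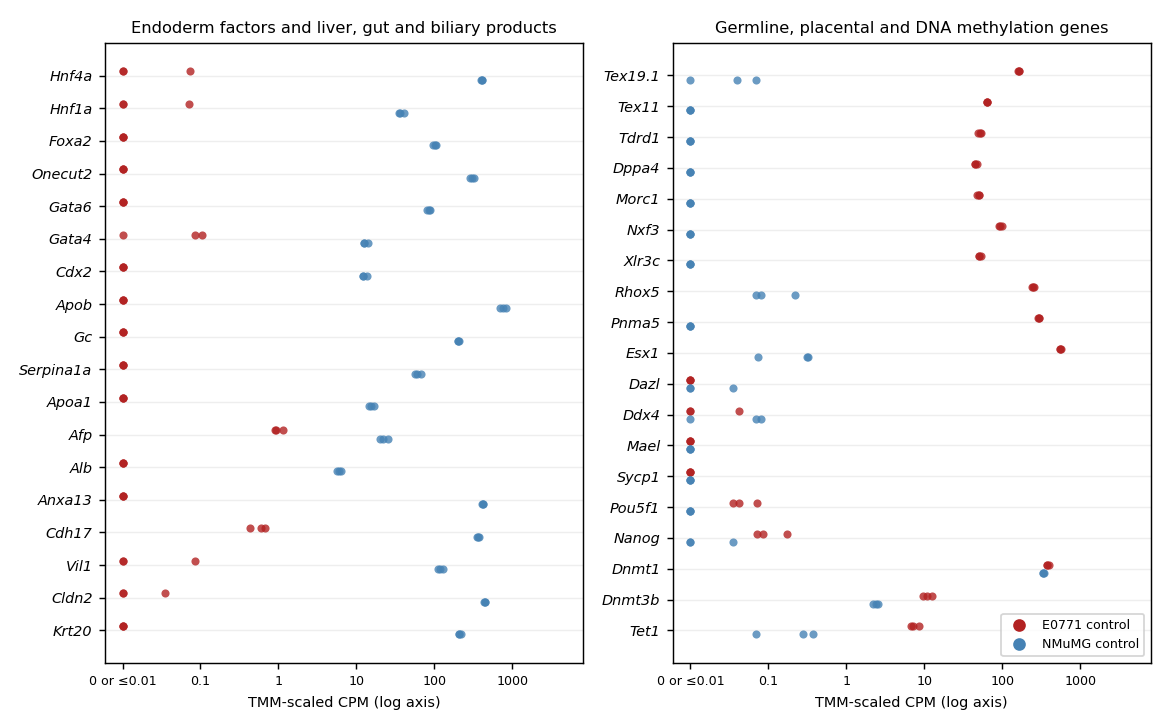
Each point is 1 control library's level in CPM (x axis, log axis), red for E0771 and blue for NMuMG, with values at or under 0.01 CPM drawn at 0.01. Endoderm factors and liver, gut and biliary products (left) lie higher in NMuMG, and most of the germline, placental and DNA methylation genes shown (right) lie higher in E0771, a direction that follows in part from how these lists were chosen, while Dazl, Ddx4, Mael, Sycp1, Pou5f1 and Nanog are near 0 in both lines and Dnmt1 is at a similar level in both.

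Of 8 genes that write, keep or remove DNA methylation, also listed after the largest changes had been seen, 3 were called, all higher in E0771. Dnmt3l, the partner of the methylating enzymes in germ cells, was at 1.86 ± 0.0523 CPM in E0771 and at 0 counts in NMuMG, at least 50.3-fold higher. Tet1, which oxidises methylated cytosine, was at 7.55 ± 1.00 against 0.239 ± 0.154 CPM (log2 fold change 4.98, SE 0.254, adjusted p = 3.00e-20), and Dnmt3b, a de novo methylating enzyme, at 11.0 ± 1.42 against 2.38 ± 0.173 CPM (log2 fold change 2.20, SE 0.134, adjusted p = 5.09e-18). The maintenance enzyme Dnmt1 was at 384 ± 8.77 and 337 ± 6.25 CPM and was not called.

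Promoter windows of germline genes on one side, and of broadly used genes that were at 0 in E0771 on the other, are shown with CG pairs, the sites of DNA methylation, in capitals. They are the 250 bases before the start from RefSeq on GRCm38.p6. Tex19.1 (chr11:121145893-121146142, plus strand) held 15 CG and Esx1 (chrX:137120327-137120576, minus strand) held 24. App (chr16:85173708-85173957, minus strand), which encodes the amyloid precursor protein, held 23, and Trim44 (chr2:102400901-102401150, minus strand), a TRIM-family protein, held 39. The germline windows shown hold more CG than the median of their list: of the 14 germline and placental genes called higher in E0771, 9 were matched, with a median of 8 CG in the window of 250 bases before to 50 after the start, and 2 (22.2%) were rich in CG by the measure given below, beside a median of 21 and 69.2% for the coding genes tested.
Tex19.1: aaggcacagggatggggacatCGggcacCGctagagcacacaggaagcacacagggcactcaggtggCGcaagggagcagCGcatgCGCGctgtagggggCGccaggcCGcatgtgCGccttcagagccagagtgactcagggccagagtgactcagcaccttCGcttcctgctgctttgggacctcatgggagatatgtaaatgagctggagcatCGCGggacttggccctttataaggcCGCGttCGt
Esx1: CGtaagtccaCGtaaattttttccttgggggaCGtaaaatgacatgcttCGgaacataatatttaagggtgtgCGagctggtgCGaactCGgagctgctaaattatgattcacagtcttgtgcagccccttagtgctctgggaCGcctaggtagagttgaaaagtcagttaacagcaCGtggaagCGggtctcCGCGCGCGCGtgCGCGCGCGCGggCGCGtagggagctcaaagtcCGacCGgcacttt
App: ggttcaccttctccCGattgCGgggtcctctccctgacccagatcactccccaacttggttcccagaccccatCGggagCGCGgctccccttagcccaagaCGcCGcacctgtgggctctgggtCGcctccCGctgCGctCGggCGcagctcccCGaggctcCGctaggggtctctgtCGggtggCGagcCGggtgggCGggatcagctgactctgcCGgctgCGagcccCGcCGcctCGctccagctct
Trim44: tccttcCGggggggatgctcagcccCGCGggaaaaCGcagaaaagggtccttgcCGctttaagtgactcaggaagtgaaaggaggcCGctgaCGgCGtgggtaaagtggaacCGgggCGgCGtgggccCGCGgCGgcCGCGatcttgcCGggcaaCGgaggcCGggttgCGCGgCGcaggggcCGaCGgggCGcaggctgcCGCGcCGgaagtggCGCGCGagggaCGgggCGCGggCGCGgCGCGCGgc
App had 0 counts in all 3 E0771 libraries and 660.2, 678 and 651 CPM in NMuMG, at least 17633-fold higher. Trim44 had 0 counts in E0771 and 315, 301 and 308 CPM in NMuMG, at least 8202-fold higher. DNA methylation and copy number were not analysed here.

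Genes with transcripts in one line and none in the other were counted with a fixed rule, at least 10 CPM in every library of one line and at most 3 counts over the libraries of the other. The rule found 80 genes in E0771 alone (0.523% of genes tested), of which 43 had 0 counts in NMuMG, and 434 genes in NMuMG alone (2.83%), of which 294 had 0 counts in E0771. Of the genes at 10 CPM or more in every library of the line, these were 0.908% of 8812 for E0771 and 4.66% of 9318 for NMuMG. On the X chromosome lay 14 of the 80 (17.5%, beside 2.76% of genes at that level in E0771) and 23 of the 434 (5.30%, beside 2.91% in NMuMG). A promoter window was rich in CG (GC of at least 50% and an observed over expected CG ratio of at least 0.6) for 36.5% of 52 matched coding genes in E0771 alone and for 57.5% of 315 in NMuMG alone, beside 69.2% of the coding genes tested. The E-box CAGGTG was in 26.9% and 25.4% of these windows, beside 17.1%. These shares are descriptions, and the genes of a cluster are not independent.

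**Figure D3:**
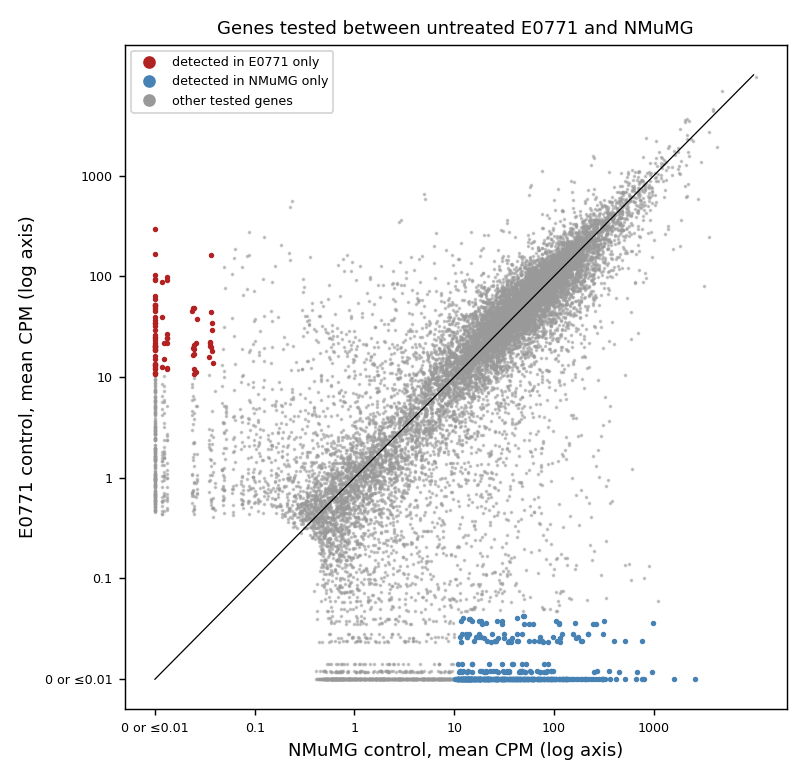
Each point is one of the 15311 genes tested, placed by its mean level over the 3 NMuMG control libraries (x axis, CPM, log axis) and over the 3 E0771 control libraries (y axis, CPM, log axis), with means at or under 0.01 CPM drawn at 0.01 and a line of equal level. Red points are the 80 genes with at least 10 CPM in every E0771 library and at most 3 counts over NMuMG, blue points are the 434 genes of the reverse case, and Krt18 is the blue point farthest to the right.

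The largest changes by the naming rule, 12 in each direction, all had 0 counts in every library of the lower line. This follows in part from the rule, as the fitted log2 fold change can rank a gene at 0 above a higher gene with a few counts. Myrf, at 949 CPM in NMuMG with 1 count over the E0771 libraries, is not among the 12, while Trim44, at 308 CPM, is. Beside the genes already given, the E0771 side held Plac9a, at 92.1 ± 2.55 CPM, the integrin adaptor Apbb1ip, at 52.3 ± 1.55 CPM, the pharyngeal factor Tbx1, at 39.1 ± 1.43 CPM, and Thrsp, a regulator of fat synthesis, at 37.1 ± 4.99 CPM. Plac9a has a near-identical copy and its value is uncertain. The NMuMG side held the ubiquitin ligase Rnf128, at 321 ± 8.05 CPM, and the transcription factor Sox4, at 311 ± 3.09 CPM. Adjusted p over these 24 genes ran from 3.57e-49 to 2.37e-10.

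Hox genes were used in different clusters. Of 39 listed, 27 were tested, 14 were called higher in E0771 and 9 higher in NMuMG. All 6 tested genes of the Hoxc cluster and all 5 of the Hoxd cluster were called higher in E0771, and 8 of 9 Hoxc genes and all 9 Hoxd genes had at most 3 counts over the NMuMG libraries. The tested genes of these clusters passed the filter on low counts through E0771 alone, so their shared direction was fixed by the filter. Hoxd9 was at 48.4, 46.4 and 47.6 CPM in E0771 and at 0 counts in NMuMG, at least 1278-fold higher. Hoxd10 was at 32.2 ± 1.41 CPM and Hoxc10 at 29.0 ± 0.981 CPM in E0771, both with 0 counts in NMuMG. Of 8 tested Hoxa genes 6 were called higher in NMuMG and 2, Hoxa9 and Hoxa10, in E0771. Of 8 tested Hoxb genes 3 were called higher in NMuMG and 1, Hoxb13, in E0771. Hoxb9 was at 28.0, 30.4 and 28.8 CPM in NMuMG and 0, 0.144 and 0 CPM in E0771 (log2 fold change -9.05, SE 0.214, adjusted p = 1.61e-30), and Hoxb8 at 10.1 ± 0.730 CPM with 0 counts in E0771. The middle of the Hoxb cluster was used in both lines, with Hoxb5 at 3.86 ± 0.745 and 3.34 ± 0.501 CPM.

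**Figure D4:**
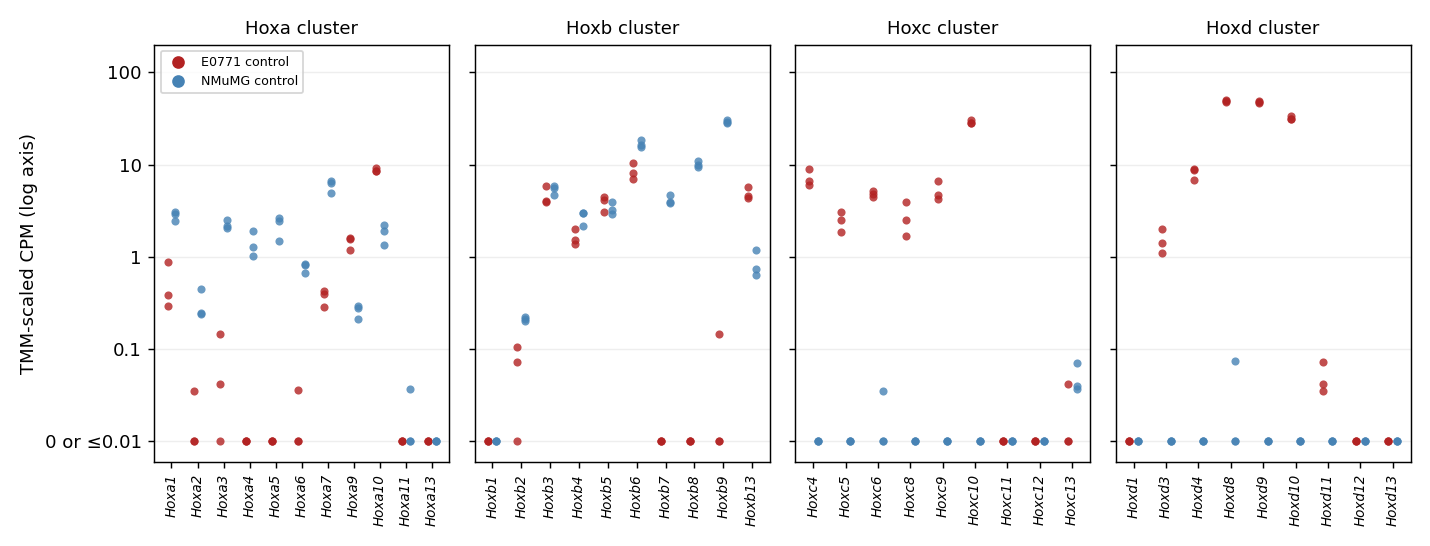
Each point is 1 control library's level of a Hox gene in CPM (y axis, log axis), in cluster order along the x axis, red for E0771 and blue for NMuMG, with values at or under 0.01 CPM drawn at 0.01. Hoxc4 to Hoxc10 and Hoxd3 to Hoxd10 are seen in E0771 with NMuMG at or near the floor, while Hoxb7 to Hoxb9 are seen in NMuMG.

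Imprinted genes, which are expressed from 1 parental copy and include several fetal growth genes, were mostly higher in NMuMG. Of 30 listed, 18 were tested, 13 were called higher in NMuMG and 2 higher in E0771, with a median of -7.05, or -4.24 with genes at 0 at their bound. Peg3, a zinc-finger factor, had 0 counts in all 3 E0771 libraries and 509, 498 and 541 CPM in NMuMG, at least 13739-fold higher. Ndn was at 10.4 ± 0.194 CPM and Snrpn at 7.24 ± 0.751 CPM in NMuMG, both with 0 counts in E0771. Cdkn1c, an inhibitor of cyclin-dependent kinases, and Phlda2, which limits placental growth, were the 2 higher in E0771, at 3.81 ± 0.307 against 1.39 ± 0.142 CPM and 22.2 ± 1.04 against 2.03 ± 0.0682 CPM. Xist, the RNA that coats the inactive X chromosome in female cells, was at 896, 824 and 996 CPM in NMuMG and 0.106, 0.253 and 0.0421 CPM in E0771 (log2 fold change -12.63, SE 0.180, adjusted p = 5.25e-11). The 5 other sex chromosome genes listed did not pass the filter.

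Some of the genes near 0 in a line lay beside each other. Over 13507 expressed genes in order along the chromosomes, runs of at least 4 neighbours that all had at most 0.05 CPM in one line and at least 1 CPM in the other numbered 18 with E0771 near 0, holding 80 genes, and 5 with NMuMG near 0, holding 31. The NMuMG runs included the Hoxd and Hoxc clusters and 7 genes and pseudogenes of the Rhox cluster on X, with Rhox1 at 21.8 CPM in E0771 and 0 counts in NMuMG. An E0771 run on chromosome 2 held Ldlrad3, Trim44, Fjx1, Pamr1 and Slc1a2, where Fjx1, which modifies planar polarity signals, was at 49.5 CPM in NMuMG and 0 counts in E0771. Another on chromosome 5 held the semaphorin genes Sema3e, at 172 CPM, and Sema3c, at 188 CPM in NMuMG, with 0 counts in E0771. A run on chromosome 13 held 4 phosphate transporter genes of the Slc17a family with Carmil1 and Ripor2. These runs were chosen after their values were seen. How many runs the same genes would give in random order was not worked out. By the fixed rule above, 434 genes were in NMuMG alone and 80 in E0771 alone, so the numbers of runs with E0771 and with NMuMG near 0 do not start from like shares. By chromosome, the median log2 fold change ran from -0.83 on chromosome 19, where 43.0% of 546 genes were called higher in NMuMG and 7.14% in E0771, to 0.31 on chromosome 6 among the autosomes, and it was -0.53 on X. What part DNA copy number has in these values was not tested.

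Growth factor receptors and their ligands differed by family. Of 39 receptor tyrosine kinase genes and EGF-family ligands, 31 were tested, with 17 called higher in NMuMG, 7 in E0771 and a median of -1.54. Egfr, the EGF receptor, was at 105, 103 and 103 CPM in NMuMG and 4.26, 5.74 and 5.01 CPM in E0771 (log2 fold change -4.37, SE 0.0700, adjusted p = 1.01e-37). Its ligand Tgfa had 0 counts in E0771 and 87.1 ± 1.17 CPM in NMuMG, at least 2318-fold higher, and the ligand Areg was at 44.4 ± 1.18 against 0.912 ± 0.150 CPM (log2 fold change -5.59, SE 0.107, adjusted p = 4.67e-35). The partner receptors Erbb2, at 58.5 ± 2.65 and 86.8 ± 4.76 CPM, and Erbb3, at 7.47 ± 0.356 and 8.41 ± 0.890 CPM, were not called, and the libraries overlapped for Erbb3. Fgfr1, an FGF receptor, was at 345 ± 20.1 CPM in E0771 against 2.78 ± 0.143 in NMuMG (log2 fold change 6.96, SE 0.0657, adjusted p = 2.68e-45), and the collagen receptor Ddr2 at 155 ± 6.33 against 0.358 ± 0.0448 CPM (log2 fold change 8.74, SE 0.0955, adjusted p = 2.88e-43). Flt4, a receptor for lymphatic growth factors, had 0 counts in E0771 and 62.4 ± 1.10 CPM in NMuMG.

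The insulin and IGF genes are those closest to the added insulin, and their values hold line and medium together. Of 23 listed, 20 were tested, with 10 called higher in NMuMG and 2 in E0771. Irs1, an adaptor of the insulin receptor, had 0 counts in E0771 and 46.0 ± 0.709 CPM in NMuMG, at least 1223-fold higher. The receptors themselves were not called, with Insr at 89.2 ± 6.38 CPM in E0771 and 47.8 ± 1.26 in NMuMG, and Igf1r at 142 ± 14.2 and 139.9 ± 3.60. IGF-binding proteins split, with Igfbp7 at 672 ± 22.5 CPM in NMuMG and 1 count over the E0771 libraries, Igfbp3 at 112 ± 5.35 CPM in NMuMG and 0 counts in E0771, and Igfbp4 at 869 ± 8.18 CPM in E0771 against 159 ± 6.54 in NMuMG.

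Secreted signals of inflammation were mostly on the NMuMG side. Of 32 cytokine and chemokine genes, 22 were tested, with 16 called higher in NMuMG and 2 in E0771. Cxcl5, a chemokine that draws neutrophils, had 0 counts in E0771 and 104, 90.7 and 95.1 CPM in NMuMG, at least 2582-fold higher. Il1rn, the blocker of interleukin-1 signals, was at 18.1 ± 1.08 CPM and the chemokine Cxcl12 at 9.74 ± 0.660 CPM in NMuMG, both with 0 counts in E0771. In the other direction, Il34, a ligand of the CSF1 receptor, was at 10.5 ± 0.753 CPM in E0771 against 3.24 ± 0.579 in NMuMG (log2 fold change 1.70, SE 0.129, adjusted p = 3.58e-15), and Tnf at 0.720 ± 0.106 against 0.0350 ± 0.0606 CPM.

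Antigen presentation genes leaned to E0771 in number, with 18 of 24 tested, 7 called higher in E0771, 2 higher in NMuMG and a median of 0.09. Nlrc5, the activator of class I genes, was at 12.1 ± 1.40 CPM in E0771 against 0.299 ± 0.135 in NMuMG (log2 fold change 5.33, SE 0.202, adjusted p = 8.08e-25). Tap2, which carries peptides into the endoplasmic reticulum, was at 57.3 ± 0.604 against 1.40 ± 0.234 CPM (log2 fold change 5.35, SE 0.0934, adjusted p = 2.05e-36). The class I genes H2-Q4 and H2-T23 were higher in NMuMG, at 8.83 ± 0.765 and 6.48 ± 0.752 CPM, and since class I genes resemble each other and differ between mouse strains, their counts are uncertain. B2m, the shared light chain, was at 132 ± 11.4 and 135 ± 2.46 CPM. Interferon-stimulated genes were even in number, with 8 called in each direction of 31 tested. That was 25.8% each way, beside 14.5% of all genes tested for E0771 and 24.5% for NMuMG. Bst2, which tethers viruses, was at 111 ± 1.92 CPM in E0771 against 11.6 ± 0.577 in NMuMG (log2 fold change 3.26, SE 0.0561, adjusted p = 1.26e-36), and Parp14 at 9.24 ± 1.14 CPM in NMuMG against 2.29 ± 0.167.

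Matrix contacts also differed. Of 40 basement membrane and integrin genes, 32 were tested, 17 were called higher in NMuMG and 3 in E0771. Itga2, the collagen-binding integrin chain, had 0 counts in E0771 and 249.8, 234 and 252 CPM in NMuMG, at least 6539.5-fold higher. Itgb6, an epithelial integrin that activates TGF-beta, was at 15.3 ± 1.86 CPM in NMuMG with 0 counts in E0771, and Thbs1, thrombospondin 1, at 91.6 ± 2.48 against 0.138 ± 0.109 CPM. Nid1, a linker of the basement membrane, was higher in E0771, at 111 ± 7.19 against 3.26 ± 0.238 CPM (log2 fold change 5.09, SE 0.0749, adjusted p = 5.56e-39). Among 26 matrix proteases and inhibitors, 22 were tested, 12 were called higher in NMuMG and 5 in E0771. The inhibitor Timp3 had 0 counts in E0771 and 129 ± 5.93 CPM in NMuMG, at least 3422-fold higher, while the stromelysin Mmp3 was at 3.49 ± 0.397 against 0.0861 ± 0.0165 CPM and the gelatinase Mmp2 at 4.05 ± 0.192 against 0.0735 ± 0.0357 CPM.

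Several Wnt receptors had no counts in E0771. Of 47 Wnt genes, 33 were tested, 20 were called higher in NMuMG and 5 in E0771, with a median of -2.93. The Wnt receptor Fzd7 had 0 counts in E0771 and 26.7 ± 2.20 CPM in NMuMG, at least 713-fold higher, Fzd1 was at 17.9 ± 1.68 CPM with 0 counts in E0771, and so was the receptor Ror1 at 25.6 ± 1.70 CPM. The ligand Wnt10b was on the other side, at 45.0 ± 4.79 CPM in E0771 with 2 counts over the NMuMG libraries. Axin2, a feedback target of the pathway, was also called higher in E0771, at 12.8 ± 0.236 against 3.81 ± 0.564 CPM.

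Of 39 TGF-beta and BMP genes, 35 were tested, 18 were called higher in NMuMG and 5 in E0771. Bmp2, Inhbb and the activin blocker Fst had 0 counts in E0771 and were at 14.7 ± 0.481, 40.8 ± 0.755 and 11.3 ± 0.819 CPM in NMuMG. Tgfbi, a matrix protein induced by TGF-beta, was at 99.1 ± 8.06 CPM in E0771 with 1 count over the NMuMG libraries, and the coreceptor Tgfbr3 at 68.8 ± 0.188 against 3.02 ± 0.494 CPM (log2 fold change 4.52, SE 0.0805, adjusted p = 4.20e-36). In the Notch pathway 13 of 17 genes were tested, 7 called higher in NMuMG and 3 in E0771. The ligand Jag2 was at 33.8 ± 1.76 CPM in NMuMG against 0.607 ± 0.120, and the target Hey1 at 7.66 ± 0.439 CPM with 0 counts in E0771, while the receptor Notch1 was higher in E0771, at 137 ± 10.6 against 51.4 ± 1.46 CPM.

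Few cell cycle genes were called, while a joint list of p53 targets and CDK inhibitors leaned to NMuMG. Of 35 cell cycle genes, all tested, 4 were called higher in E0771 and 3 higher in NMuMG, with a median of 0.12. The cyclin gene Ccnd1 was at 1304 ± 22.9 CPM in NMuMG against 265 ± 2.36 in E0771 (log2 fold change -2.30, SE 0.0352, adjusted p = 2.28e-38), and Ccnd2 went the other way, at 561 ± 19.19 against 203 ± 5.47 CPM. Myc, a growth-promoting factor, was at 268 ± 14.2 CPM in E0771 against 92.8 ± 3.19 (log2 fold change 1.53, SE 0.0411, adjusted p = 6.17e-30). Of 27 p53 targets and CDK inhibitors, 17 were called higher in NMuMG and 2 in E0771. Cdkn2a, the gene of the inhibitors p16 and Arf, had 0 counts in all 3 E0771 libraries and 16.6, 19.16 and 17.0 CPM in NMuMG, at least 467-fold higher. Its neighbour Cdkn2b had 0 counts in E0771 and 35.5 ± 1.29 CPM in NMuMG, at least 944-fold higher. The CDK inhibitors Cdkn1b and Cdkn1c were not called higher in NMuMG. Cdkn1b was at 84.1 CPM in E0771 and 98.9 CPM in NMuMG and was not called, and Cdkn1c, given above, was called higher in E0771. Trp53 itself was at 227 ± 5.35 and 292 ± 1.92 CPM and was not called.

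Cholesterol synthesis genes leaned to NMuMG. All 25 genes were tested, 13 were called higher in NMuMG, 1 in E0771 and 11 were not called, with a median of -1.03. Tm7sf2, Hsd17b7 and Ebp, enzymes of the late sterol steps, were at 28.8 ± 2.22, 31.8 ± 1.30 and 88.2 ± 2.35 CPM in NMuMG against 5.56 ± 0.774, 5.93 ± 0.153 and 19.19 ± 1.71 CPM in E0771. Of 29 glycolysis and hypoxia genes, 28 were tested, 7 were called higher in E0771 and 2 higher in NMuMG. Slc16a3, the lactate exporter, was at 264, 274 and 289 CPM in E0771 and 0.105, 0.159 and 0 CPM in NMuMG (log2 fold change 11.56, SE 0.115, adjusted p = 1.31e-40), Pfkp, a phosphofructokinase, at 276 ± 5.96 against 14.8 ± 0.265 CPM, and Pkm, pyruvate kinase, at 4317 ± 129 CPM in NMuMG against 1918 ± 33.4. The glucose listed for the NMuMG medium, with no value listed for E0771, cannot be told apart from the line here.

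The series asks about ferroptosis, a death by iron-driven oxidation of membrane lipids. Of 23 suppressor genes, all tested, 10 were called higher in NMuMG and 3 in E0771. Gpx4, which reduces lipid peroxides, was at 145, 159.5 and 166 CPM in E0771 and 313, 309 and 307 CPM in NMuMG (log2 fold change -0.98, SE 0.0398, adjusted p = 1.80e-23), just under the 2-fold of a call, and it passed 2-fold without E0771 replicate 2 or without E0771 replicate 3, with -1.02 for the latter. Slc7a11, the cystine importer, was at 7.84 ± 0.798 and 13.0 ± 0.725 CPM and was not called, and neither was Hmox1, heme oxygenase, at 84.4 ± 5.54 and 56.3 ± 0.594 CPM. Slc40a1, the iron exporter, had 0 counts in E0771 and 69.0 ± 0.909 CPM in NMuMG, at least 1837-fold higher, and Mboat1, which remodels membrane lipids, was at 186 ± 2.40 against 2.64 ± 0.538 CPM. Nqo1, a quinone reductase, and Scd1, which makes monounsaturated fatty acids, were higher in E0771, at 28.7 ± 0.600 against 0.984 ± 0.231 and 266 ± 12.1 against 62.1 ± 2.26 CPM. Among 21 drivers and markers, 18 were tested, with 4 called higher in NMuMG and 1 in E0771. Acsl4, which loads membranes with polyunsaturated lipids, was at 138 ± 2.63 CPM in NMuMG against 32.8 ± 1.52 in E0771 (log2 fold change -2.08, SE 0.0465, adjusted p = 1.11e-32), and Steap3, an iron reductase, at 135 ± 9.34 against 14.8 ± 1.97 CPM.

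**Figure D5:**
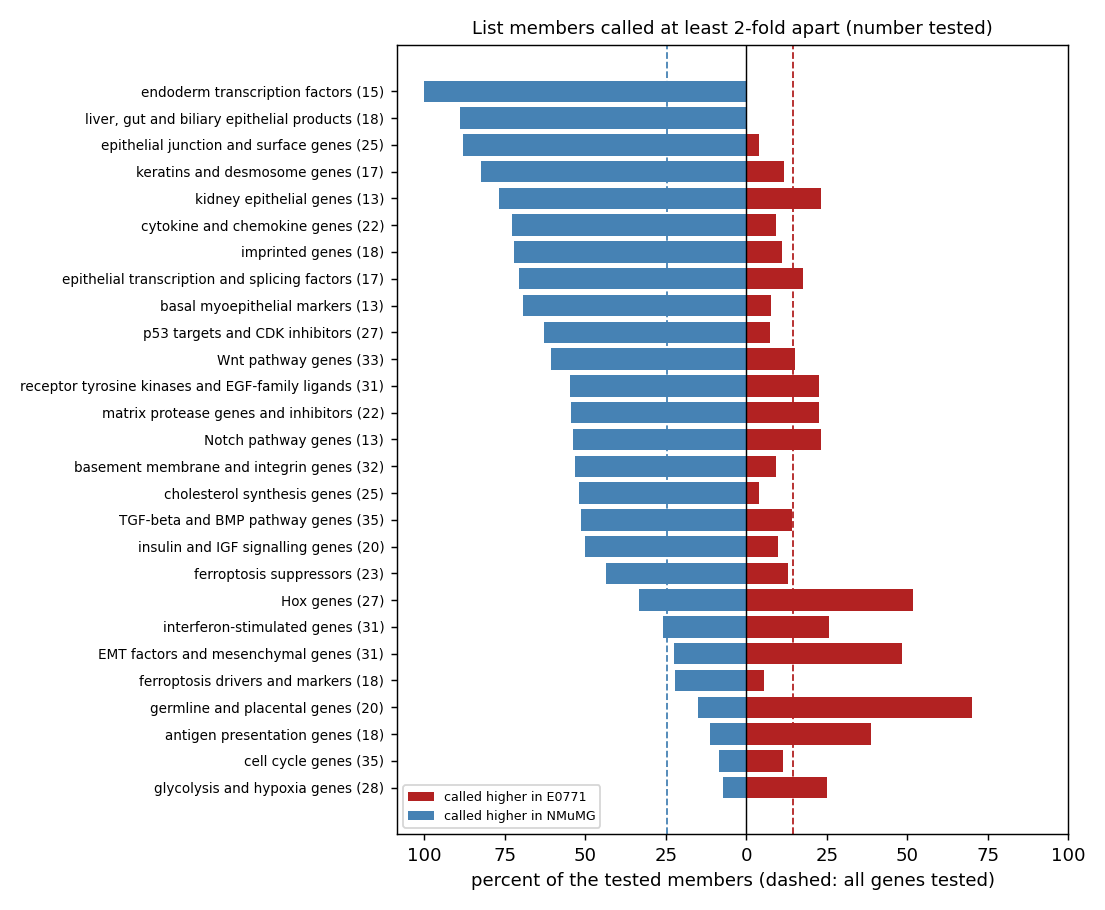
For each gene list, with its number of tested genes in brackets, the bars give the percent of tested members called higher in NMuMG (blue, to the left) and in E0771 (red, to the right), and the dashed lines mark the same over all genes tested, 24.5% and 14.5%. The junction and keratin lists lie far past the NMuMG line, cell cycle genes lie short of both lines, and the endoderm, liver, kidney and germline lists were chosen after the largest changes had been seen.

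The immune and endothelial markers listed were low, and genes of these cell types outside the lists were not examined as a group. Of 12 immune markers, 11 were under 1 CPM in both lines, with a summed level of 3.41 to 4.22 CPM in E0771 and 0.699 to 0.914 in NMuMG, and Lyz2, lysozyme of myeloid cells, was at 3.00 ± 0.351 CPM in E0771. Endothelial markers summed to 5.42 to 5.77 CPM in E0771 and 0.315 to 0.443 in NMuMG, with Pecam1 at 3.84 ± 0.443 CPM in E0771. Of 12 fibroblast markers, 6 were tested and 5 were called higher in E0771, none higher in NMuMG, with a summed level of 982 to 1085 CPM against 32.3 to 37.2, and 4 of these 5 also stand in the mesenchymal list. In bulk RNA, a few cells with much of a transcript and many cells with little cannot be told apart.

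The line difference was also read in the 12 libraries grown with secretome, which the comparison above does not use. An adjusted p under 0.05 was reached by 82.9% of 15389 genes tested with lean and 83.3% of 14997 with obese secretome, and 40.6% and 39.2% were called. With lean secretome, 1770 of the 2226 genes called higher in E0771 (79.5%, and 75.9% of the 2333 called there) and 3235 of the 3746 higher in NMuMG (86.4%, and 82.6% of 3916) were called the same way. With obese secretome the numbers were 1966 (88.3%, and 89.0% of 2210) and 3359 (89.7%, and 91.7% of 3662). Calls in the opposite direction numbered 3 with lean and 0 with obese secretome. Of the 3, Adamts1, a matrix protease, was at 13.4 CPM in E0771 and 47.7 CPM in NMuMG in control medium, and at 29.0 and 7.97 CPM with lean secretome. Cbfa2t3 and Ptpn22, the other two, were under 2 CPM throughout. Across genes, Pearson's r of the log2 fold changes was 0.977 over 14852 genes for lean and 0.987 over 14812 for obese secretome, which describes genes and not replicates.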

How the data were processed

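PolyA RNA of each line was sequenced as directional paired-end libraries, per the labels' protocols. The deposited values are raw counts per gene, and the submitters' processing notes name cutadapt 1.16, STAR 2.7.9a, featureCounts 1.6.3 and the build GRCm39. The strand setting and annotation release of the counting are not given in the sources used here. Of 56980 gene IDs, 52073 were matched to a symbol in GENCODE M21 (99.68% of counts), used for names and gene order only.

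The 6 control libraries were fitted in edgeR 4.0.16 (R 4.3.3) with filterByExpr, TMM scaling and the robust quasi-likelihood F test, with Benjamini-Hochberg adjustment over 15311 genes and no block. The common biological coefficient of variation was 0.0377 and the median SE of a log2 fold change 0.0760. The procedure was run on simulated counts in which only a small share of genes differed between the lines, all with the same dispersion. Scaling where as many genes differ as here was not covered by that run. Libraries of a line differed beyond counting noise (chi-square per degree of freedom 2.51 to 6.29). Each was kept as a replicate, though this spread does not show that they were separate cultures. The first principal component (98.2% of variance) separated the lines.

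For a gene at 0 in a line, the fold is a lower bound against 3 counts over its 3 libraries. With 1 to 3 counts the ratio has an exact 95% interval, which covers counting error only. Genes were named by rule: a fixed core list of 34 genes, the 12 largest changes in each direction among called genes with at least 20 CPM in every library of the higher line, and up to 3 called members per list and direction. Other named genes were chosen after their values were seen. The comparison, the 30 gene lists and the tests were chosen with earlier results of these data known, and 5 more lists after the largest changes were seen, so lists are described by counts and medians, without a test. Promoter windows came from RefSeq on GRCm38.p6. Alternatives were DESeq2 1.42.0, other scalings and filters, a test against a fold of 2, a replicate block, all 18 mouse libraries, each library left out, and the secretome libraries. Some genes of the lists are not reported here.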

Additional observations from a re-analysis of the deposited data

Results flagged for a closer look

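Adamts1, a secreted protease that cleaves proteoglycans, was called in opposite directions in different media. In control medium it was lower in E0771 than in NMuMG (log2 fold change -1.84), and with lean secretome it was higher (1.87). The difference between the media was not tested.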

How the results depend on the processing

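The number of genes called at least 2-fold in either direction was 5972 and stayed within 1.5 times that number under every alternative run, from 4876 with a filter of at least 1 CPM in 3 libraries to 8047 with no filter. It was 5940 with DESeq2, 5276 with a test against a fold of 2 and 6691 with all 18 mouse libraries. Leaving out 1 library at a time gave 6188 to 6318 calls, and these fits assume that a line left with 2 libraries varies like the other. Same-numbered libraries of the lines did not deviate together (residual r of -0.0472, -0.0436 and -0.0264), so the numbers were not taken as pairs, and the fit with a replicate block gave 5971 calls. Of 442 genes followed in the control libraries, 408 had a value under all 14 settings and left-out libraries, and for 393 of these the call, or its absence, was the same in each, while for 15 it changed. The other 34 had no value under the filter of at least 1 CPM, 2 of them also none without NMuMG replicate 3, and 33 of the 34 had the same call under the alternatives that gave a value. The genes followed were those named by rule and all other list genes called in the comparison. Their agreement therefore does not stand for calls in general. Gpx4, not called, passed 2-fold without E0771 replicate 2 or without E0771 replicate 3, with -1.02 for the latter, and Aifm2, called, was at 0.95 without E0771 replicate 1 and 0.97 without NMuMG replicate 2. Among the genes followed, 4 changed sign in the lean secretome libraries, and the cause was not tested. Their log2 fold changes there were 0.0346 for Ccl7, 0.15 for Gclm, 0.14 for Itga7 and 1.87 for Adamts1. Cbfa2t3 and Ptpn22, given above, also changed sign there. Depth limits the genes at 0, for which only a lower bound on the fold can be given. Line and medium cannot be told apart.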
